A study of Mus musculus with 8 samples.

Results

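Regulators of G protein signalling (RGS proteins) carry an RGS domain that speeds the hydrolysis of GTP by G protein alpha subunits and so shortens the signal of a G protein-coupled receptor. 10 RGS genes were examined here: Rgs1, Rgs2, Rgs3, Rgs4, Rgs5, Rgs10, Rgs12, Rgs16, Rgs17 and Rgs19. Every probe set annotated to one of them alone was taken, which gave 24 of the 30506 probe sets in the table, for 10 of the 13307 genes named there by a probe set of their own. The 10 genes were chosen by values measured in these same arrays, after the difference between genotypes had been seen, so their differences below are a description and their adjusted p-values only give their place in the fit over the whole table.

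The study profiled primary mouse embryonic fibroblasts (MEFs), cells grown directly from embryos, on Affymetrix 3' arrays. The Cry DKO group held 4 independent lines with the genotype Cry1-/- Cry2-/-, which lack both cryptochromes, the repressors that close the feedback loop of the circadian clock. The WT group held 4 independent lines with intact Cry1 and Cry2. Both groups were on a near-C57BL/6J background, reached through more than 7 backcrosses from BL6/129 mice, and they were untreated and proliferating asynchronously in DMEM/F10 with 10% FCS at 3% oxygen. Each line was hybridised to 1 array. A difference between genotypes is therefore one between unsynchronised cultures.

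In vessels, RGS proteins of the R4 subfamily limit the contraction that Gq-coupled receptors drive, and in leukocytes they limit migration towards chemokines through Gi. R4 proteins are small and little more than the RGS domain itself, R12 proteins vary in size, and RZ proteins carry a cysteine-rich stretch near their amino terminus. RGS genes are often induced by the signals that they later dampen, so that transcript abundance is a common point of control.

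The values were read as log2 signals from their range, since the log base was not given, and fold changes assume it. The array medians lay between 6.78 and 6.79. A probe set was tested when it was annotated to 1 gene and its mean over the 8 arrays was at or above the 40th percentile of all non-control means, a floor of 6.05. 16347 probe sets of 9515 genes were tested. Arrays correlated at 0.973 to 0.977 within a genotype and at 0.967 to 0.975 between genotypes, and the median SD within a genotype was 0.136 over the tested probe sets. The number of arrays, 4 in each genotype, limits the precision of each difference. The targeted genes did not separate the genotypes at the threshold used. Cry1 averaged 6.29 ± 0.31 in Cry DKO lines and 6.79 ± 0.40 in WT lines (SD, n = 4 each), a difference of -0.50 (SE 0.21, limma adjusted p = 0.181). Cry2 averaged 6.87 ± 0.20 in Cry DKO lines and 7.20 ± 0.18 in WT lines, a difference of -0.34 (SE 0.13, limma adjusted p = 0.143). The place of these probes relative to the deleted parts is not recorded in the labels, so they do not check the genotype.

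Promoter windows were read from RefSeq (GRCm38.p6), which held 13 for 9 of the 10 genes and none for Rgs1. Each runs from 250 bases before a transcript start to 50 after it. The windows of Rgs4 and Rgs5 are shown, which are among the genes with a lower mean signal in Cry DKO lines. That of Rgs2, among those with a higher mean, is shown as well, and each of these windows holds a CCAAT box. A window of Rgs19 is shown because it holds an E-box, the element bound by the CLOCK and BMAL1 activators that cryptochromes repress. Capitals mark the motif, 5' to 3' along the strand of the gene. In Rgs4 and Rgs5 the box lies on the other strand and so reads ATTGG here.
Rgs4, chr1:169747593-169747892, minus strand: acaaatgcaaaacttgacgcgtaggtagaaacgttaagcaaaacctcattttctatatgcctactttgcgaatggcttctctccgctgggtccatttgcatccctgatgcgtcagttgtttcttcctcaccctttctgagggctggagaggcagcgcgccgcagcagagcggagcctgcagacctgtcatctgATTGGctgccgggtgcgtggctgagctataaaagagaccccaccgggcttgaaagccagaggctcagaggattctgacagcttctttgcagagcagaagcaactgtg
Rgs5, chr1:169655251-169655550, plus strand: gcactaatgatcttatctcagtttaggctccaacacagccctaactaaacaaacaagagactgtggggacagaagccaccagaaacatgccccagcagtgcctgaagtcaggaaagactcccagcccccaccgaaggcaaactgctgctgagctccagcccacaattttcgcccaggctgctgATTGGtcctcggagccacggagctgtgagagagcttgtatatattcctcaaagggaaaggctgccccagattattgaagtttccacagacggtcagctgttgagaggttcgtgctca
Rgs2, chr1:144004100-144004399, minus strand: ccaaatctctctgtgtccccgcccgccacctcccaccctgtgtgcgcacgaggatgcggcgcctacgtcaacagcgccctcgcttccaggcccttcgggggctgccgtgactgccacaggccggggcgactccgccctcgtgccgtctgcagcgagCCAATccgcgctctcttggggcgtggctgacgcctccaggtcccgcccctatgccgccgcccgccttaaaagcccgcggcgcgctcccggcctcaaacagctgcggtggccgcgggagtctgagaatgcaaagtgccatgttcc
Rgs19, second of 3 starts, chr2:181693761-181694060, minus strand: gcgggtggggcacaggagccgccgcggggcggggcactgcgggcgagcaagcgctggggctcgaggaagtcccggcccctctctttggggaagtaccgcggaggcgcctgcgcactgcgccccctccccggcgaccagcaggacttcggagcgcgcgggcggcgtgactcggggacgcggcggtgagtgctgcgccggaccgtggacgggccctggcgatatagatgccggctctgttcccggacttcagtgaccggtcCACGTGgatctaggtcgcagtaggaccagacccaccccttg

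The CCAAT box began 57 bases before the start in Rgs4, 67 bases before it in Rgs5 and 94 bases before it in Rgs2. Rgs16 held one as well, 68 bases before its start. CCAAT was thus present on either strand in 4 of 13 windows (30.8%), against 37.4% of all 32851 mouse windows in the same table. The E-box CACGTG, which reads the same on both strands, was present in 1 of 13 windows (7.69%), against 7.15% of all windows. The Rgs19 copy began 9 bases after the start. None of the 13 windows held AGGTCA, TGACGTCA or a CArG box on either strand, and these were present in 16.3%, 1.79% and 1.63% of all windows. A CArG box can contain CCAAT, but none of the 13 windows held one, and no other of these motifs contains another. These are matches of letters in a short window and do not show that a factor binds there.

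Across the 10 genes, signal was lower in Cry DKO lines for Rgs4 and higher for Rgs2, and these were the genes with a probe set at an adjusted p under 0.05 by limma with Benjamini-Hochberg adjustment over all tested probe sets. 17 of the 24 probe sets lay above the floor, at least 1 for each gene, and 7 lay under it. 1 of the 17 was higher (Rgs2) and 2 were lower (Rgs4), which is 17.6%, while 14 did not pass. Over all tested probe sets 6.81% passed, 3.67% as higher and 3.14% as lower. Since the genes were chosen on this contrast, nothing is read from the members' share. The median difference was 0.04 over the 17 members' probe sets and -0.01 over all tested. With no floor, the same 3 member probe sets passed, against 3.99% of all 24838 probe sets annotated to 1 gene. The ranges of the genotypes did not overlap in 7 of the 24 probe sets (29.2%), against 12.1% of all, and in 5 of the 17 above the floor (29.4%), against 15.4% of all tested. Probe sets of the same gene were measured in the same RNA and are not independent of each other. Whether they read the same transcript forms was not checked. Across the 8 genes with more than 1 probe set, all probe sets of a gene differed in the same direction with all lines included. For Rgs3 and Rgs16 this rests on differences near 0. Rgs3 1425296_a_at and Rgs16 1426037_a_at and 1451452_a_at changed sign when some lines were left out. By subfamily, the 3 that passed were among the 12 tested R4 probe sets, and none of 2 R12 or 3 RZ probe sets passed.

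**Figure D1:**
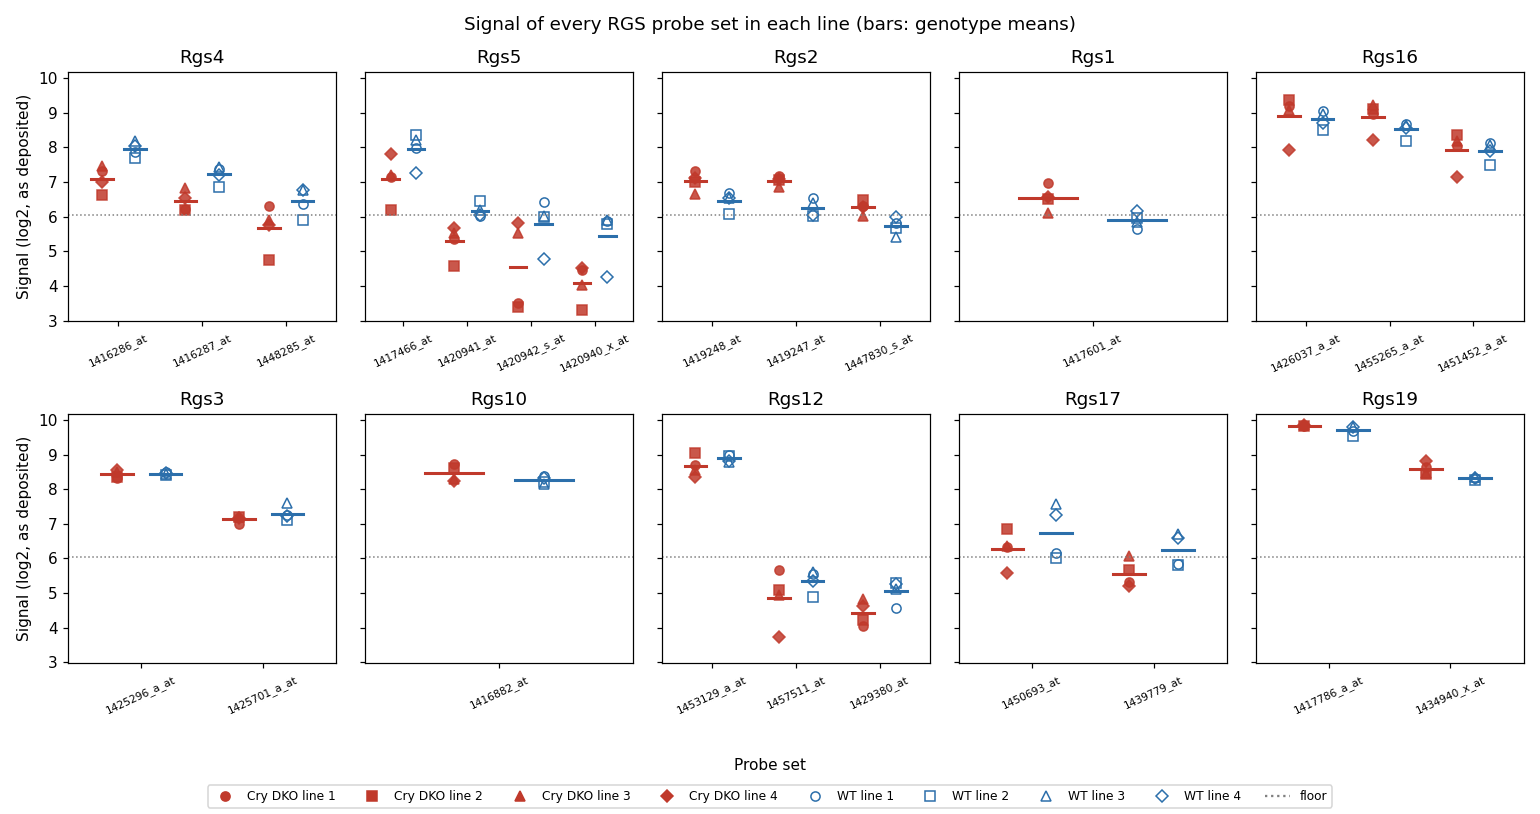
Log2 signal of the 24 RGS probe sets in each of the 8 lines, one panel for each gene, with Cry DKO lines (filled red) left of WT lines (open blue) for each probe set, bars at the genotype means and a dotted line at the floor. In both upper Rgs4 probe sets all Cry DKO lines lay under all WT lines, in Rgs2 1419247_at all lay above them, and in Rgs16 Cry DKO line 4 lay apart below the other Cry DKO lines.

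Rgs4 acts on Gi and Gq alpha subunits and is known as a brake on signalling by contractile and growth receptors in vascular smooth muscle and heart. Its probe set of highest signal, 1416286_at, read 7.31, 6.61, 7.46 and 6.99 in Cry DKO lines 1 to 4 and 7.86, 7.70, 8.19 and 8.04 in WT lines 1 to 4. Every Cry DKO line was below every WT line. The means were 7.09 ± 0.38 in Cry DKO and 7.95 ± 0.21 in WT (SD, n = 4 each), a 1.81-fold lower signal (difference -0.86, SE 0.17, 95% interval -1.24 to -0.47, limma adjusted p = 0.0174). It stood at place 55 from the lowest difference of all tested probe sets. Without WT line 3 its adjusted p was 0.0566.

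The second Rgs4 probe set, 1416287_at, read 6.23, 6.19, 6.81 and 6.53 in Cry DKO lines and 7.39, 6.85, 7.43 and 7.20 in WT lines. The genotypes again did not overlap, although Cry DKO line 3 and WT line 2 nearly met. The difference was -0.78 (SE 0.17, limma adjusted p = 0.0223), or 1.72-fold. It no longer passed when Cry DKO line 1, Cry DKO line 2, WT line 1 or WT line 3 was left out, with an adjusted p of up to 0.0706. The third, 1448285_at, reached the floor by its mean over the 8 arrays only through the WT lines, and overlapped between genotypes, with 6.30, 4.75, 5.89 and 5.77 in Cry DKO lines and 6.37, 5.90, 6.76 and 6.77 in WT lines. Its difference was -0.77 with a wide error (SE 0.31, limma adjusted p = 0.158), and it was -0.46 without Cry DKO line 2, so it adds no support to the other probe sets.

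Rgs5 marks pericytes and vascular smooth muscle cells, where it dampens signalling by angiotensin, endothelin and other contractile agonists. Its tested probe set, 1417466_at, read 7.14, 6.19, 7.21 and 7.80 in Cry DKO lines and 7.97, 8.35, 8.21 and 7.26 in WT lines. The genotypes overlapped, because Cry DKO line 4 was above WT line 4. The mean difference of -0.86 equalled that of Rgs4 1416286_at, but the lines varied more (7.09 ± 0.67 in Cry DKO, 7.95 ± 0.48 in WT), and it did not pass (SE 0.31, 95% interval -1.54 to -0.19, limma adjusted p = 0.120). Without Cry DKO line 2, the lowest, the difference was -0.56.

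3 further Rgs5 probe sets lay under the floor, and their differences ran from -1.37 to -0.89. Of these, 1420941_at did not overlap, with 5.36, 4.57, 5.53 and 5.68 in Cry DKO lines against 6.01, 6.46, 6.18 and 6.04 in WT lines (limma adjusted p = 0.0546 in the fit with no floor and 0.0498 with a floor at the 20th percentile). In 1420942_s_at and 1420940_x_at, WT line 4 lay among the Cry DKO lines, at 4.77 and 4.24. Cry DKO line 2 was the lowest Cry DKO line in all 7 probe sets of Rgs4 and Rgs5, and WT line 4 the lowest WT line in 3 of 4 Rgs5 probe sets.

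**Figure D2:**
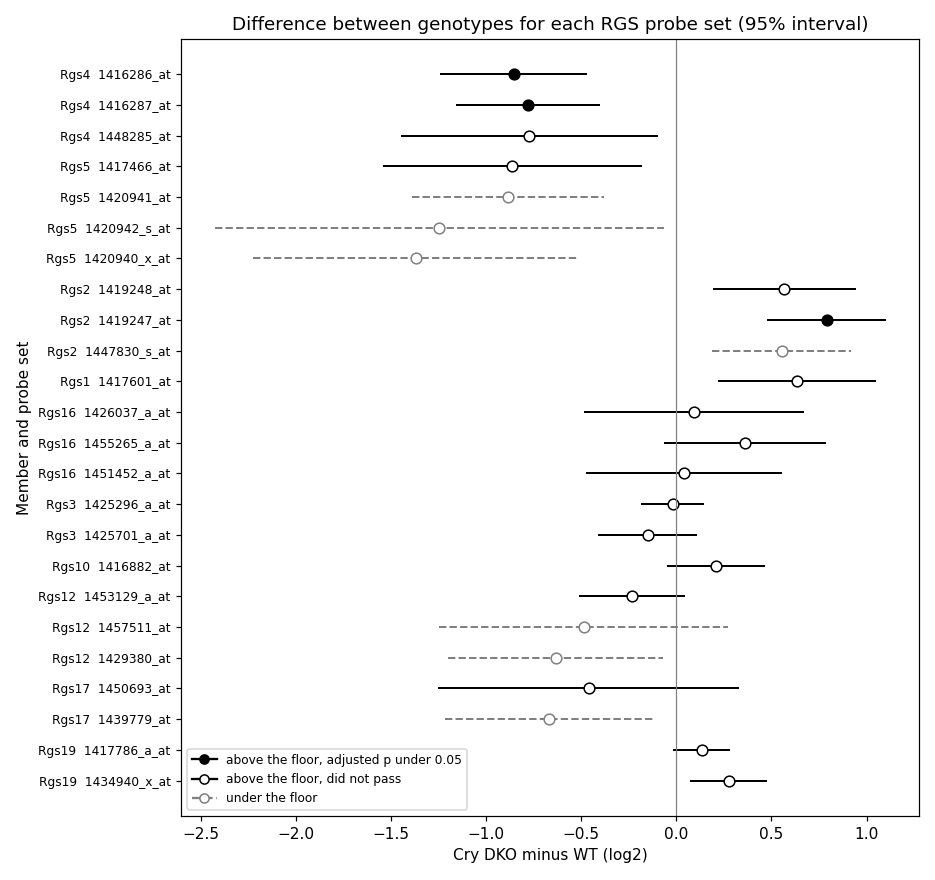
Difference in log2 signal, Cry DKO minus WT, for each RGS probe set, with its 95% interval. Filled points passed at an adjusted p under 0.05, open black points were tested and did not pass, and grey points lie under the floor with intervals from the fit with no floor. All Rgs4 and Rgs5 points lie at -0.77 or lower, and all Rgs2 and Rgs1 points at 0.55 or higher.

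Rgs2 prefers Gq among the alpha subunits, lowers blood pressure through this action in mice, and is a gene that many stimuli switch on quickly. Its probe set 1419247_at read 7.16, 7.04, 6.87 and 7.08 in Cry DKO lines and 6.53, 6.02, 6.38 and 6.06 in WT lines. Every Cry DKO line was above every WT line, and the Cry DKO lines lay close together. The means were 7.04 ± 0.12 in Cry DKO and 6.25 ± 0.25 in WT (SD, n = 4 each), a 1.73-fold higher signal (difference 0.79, SE 0.14, 95% interval 0.48 to 1.10, limma adjusted p = 0.00891). It passed whichever of the 8 lines was left out.

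The second Rgs2 probe set, 1419248_at, read 7.32, 6.99, 6.67 and 7.12 in Cry DKO lines and 6.69, 6.06, 6.54 and 6.54 in WT lines. WT line 1 was slightly above Cry DKO line 3, so the genotypes overlapped. The difference was 0.57 (SE 0.17, limma adjusted p = 0.0681), and without Cry DKO line 3 it was 0.69 with an adjusted p of 0.0431. Without any other single line this probe set did not pass, and its difference was smallest without WT line 2 (0.44, limma adjusted p = 0.149). The third, 1447830_s_at, lay under the floor and did not overlap, at 6.31, 6.48, 6.02 and 6.28 in Cry DKO lines and 5.82, 5.66, 5.40 and 6.00 in WT lines. Its difference was 0.55, with a limma adjusted p of 0.0912 when no floor was used.

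Rgs1 acts on Gi and Gq and is known from B cells and other leukocytes, where it limits movement towards chemokines. Its single probe set, 1417601_at, read 6.97, 6.51, 6.09 and 6.57 in Cry DKO lines and 5.64, 5.96, 5.85 and 6.15 in WT lines. The overlap was slight, with Cry DKO line 3 under WT line 4, and the WT mean was itself under the floor. The means were 6.54 ± 0.36 in Cry DKO and 5.90 ± 0.21 in WT (SD, n = 4 each), and the difference of 0.63 did not pass (SE 0.19, 95% interval 0.22 to 1.05, limma adjusted p = 0.0669). Without Cry DKO line 3 the difference was 0.78, with an adjusted p of 0.0345. Without any other single line Rgs1 did not pass, and its difference was smallest without Cry DKO line 1 (0.49, limma adjusted p = 0.138).

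Rgs16 acts on Gi and Gq and cycles with the clock in the mouse suprachiasmatic nucleus and liver. Its probe set 1426037_a_at read 9.20, 9.37, 9.08 and 7.93 in Cry DKO lines and 9.03, 8.51, 8.96 and 8.71 in WT lines. Its probe set 1455265_a_at read 8.97, 9.10, 9.22 and 8.22 in Cry DKO lines and 8.68, 8.20, 8.63 and 8.56 in WT lines. Its probe set 1451452_a_at read 8.05, 8.37, 8.18 and 7.14 in Cry DKO lines and 8.12, 7.50, 8.06 and 7.89 in WT lines. In each of the 3, Cry DKO line 4 was the lowest of the Cry DKO lines, well under the other Cry DKO lines, and WT line 2 was the lowest WT line. No Rgs16 probe set passed: the differences were 0.09 (SE 0.26), 0.36 (SE 0.19) and 0.04 (SE 0.23), with limma adjusted p-values of 0.874, 0.291 and 0.942. Without Cry DKO line 4, 1455265_a_at differed by 0.58 with an adjusted p of 0.0202. Without any other single line this probe set did not pass, and its difference was smallest without Cry DKO line 3 (0.25, limma adjusted p = 0.524).

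Rgs3, an R4 member with several isoforms, had the smallest difference among the member probe sets. Its probe set 1425296_a_at averaged 8.43 ± 0.11 in Cry DKO lines and 8.45 ± 0.04 in WT lines, a difference of -0.02 with a 95% interval of -0.18 to 0.14 (limma adjusted p = 0.905). The interval leaves no room for a change of the size seen in Rgs4. Its other probe set, 1425701_a_at, averaged 7.14 ± 0.10 in Cry DKO lines and 7.29 ± 0.21 in WT lines (difference -0.15, SE 0.12, limma adjusted p = 0.476), and without WT line 3 the difference was -0.05.

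The R12 members Rgs10, which acts on Gi and is known from microglia and platelets, and Rgs12, a large scaffold for Ras and MAP kinase signalling, overlapped between genotypes in all 4 probe sets. Rgs10 read 8.74, 8.60, 8.29 and 8.23 in Cry DKO lines and 8.37, 8.20, 8.14 and 8.32 in WT lines. Cry DKO lines 1 and 2 were above all other lines, and Cry DKO lines 3 and 4 lay among the WT lines (difference 0.21, SE 0.11, 95% interval -0.04 to 0.46, limma adjusted p = 0.307). Without Cry DKO line 1 the difference was 0.12. The tested Rgs12 probe set, 1453129_a_at, averaged 8.66 ± 0.28 in Cry DKO lines and 8.89 ± 0.11 in WT lines (difference -0.23, SE 0.12, limma adjusted p = 0.296). Its difference was -0.36 without Cry DKO line 2 and -0.13 without Cry DKO line 4. Both Rgs12 probe sets under the floor were lower in Cry DKO lines as well, by means of -0.49 and -0.63.

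The RZ members act mainly on Gi and Gz. Rgs19, also called GAIP, showed small differences with little spread. Its probe set 1417786_a_at read 9.83, 9.83, 9.85 and 9.84 in Cry DKO lines and 9.69, 9.54, 9.80 and 9.79 in WT lines. The Cry DKO lines were nearly identical and just above WT lines 3 and 4, without overlap. The difference was 0.13 (SE 0.07, 95% interval -0.01 to 0.28, limma adjusted p = 0.257), and 0.08 without WT line 2. Its other probe set, 1434940_x_at, read 8.65, 8.44, 8.46 and 8.82 in Cry DKO lines and 8.32, 8.26, 8.35 and 8.33 in WT lines, again without overlap (difference 0.27, SE 0.09, 95% interval 0.07 to 0.47, limma adjusted p = 0.0966). Neither passed.

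Rgs17, known from brain, varied between lines of one genotype by more than the genotypes differed. Its probe set 1450693_at read 6.34, 6.85, 6.37 and 5.58 in Cry DKO lines and 6.15, 6.00, 7.58 and 7.26 in WT lines. WT lines 3 and 4 stood above all other lines and WT lines 1 and 2 lay within the Cry DKO range (difference -0.46, SE 0.36, limma adjusted p = 0.480). The difference was -0.18 without WT line 3, -0.23 without Cry DKO line 4, -0.29 without WT line 4 and -0.71 without WT line 2. The probe set under the floor, 1439779_at, differed by -0.67, with the same WT lines at the top.

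The members known from fibroblasts and smooth muscle, Rgs4 and Rgs5, were set against Rgs1, known from leukocytes, and Rgs19, grouped with it here. Rgs19 1417786_a_at had the highest mean signal of the member probe sets, 9.77, so its values do not mark it as a leukocyte gene in these cultures. For each line the probe set of highest mean of each gene was averaged and the WT mean subtracted. Rgs4 and Rgs5 gave -0.72, -1.55, -0.61 and -0.56 in Cry DKO lines 1 to 4 and -0.03, 0.08, 0.25 and -0.30 in WT lines 1 to 4. Rgs1 and Rgs19 gave 0.59, 0.37, 0.17 and 0.41 in Cry DKO lines and -0.14, -0.05, 0.02 and 0.17 in WT lines. In the first pair all Cry DKO lines were below all WT lines, and in the second Cry DKO line 3 and WT line 4 met. The difference of 0.38 in the second pair came mostly from Rgs1, at 0.63, while Rgs19 differed by 0.13. The mean of Rgs4 and Rgs5 minus that of Rgs1 and Rgs19 was -1.31, -1.91, -0.78 and -0.96 in Cry DKO lines and 0.11, 0.13, 0.23 and -0.46 in WT lines, a difference between genotypes of -1.24. It ran from -1.40 to -1.02 when a line was left out and is given with no test, since the genes were chosen on it.

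**Figure D3:**
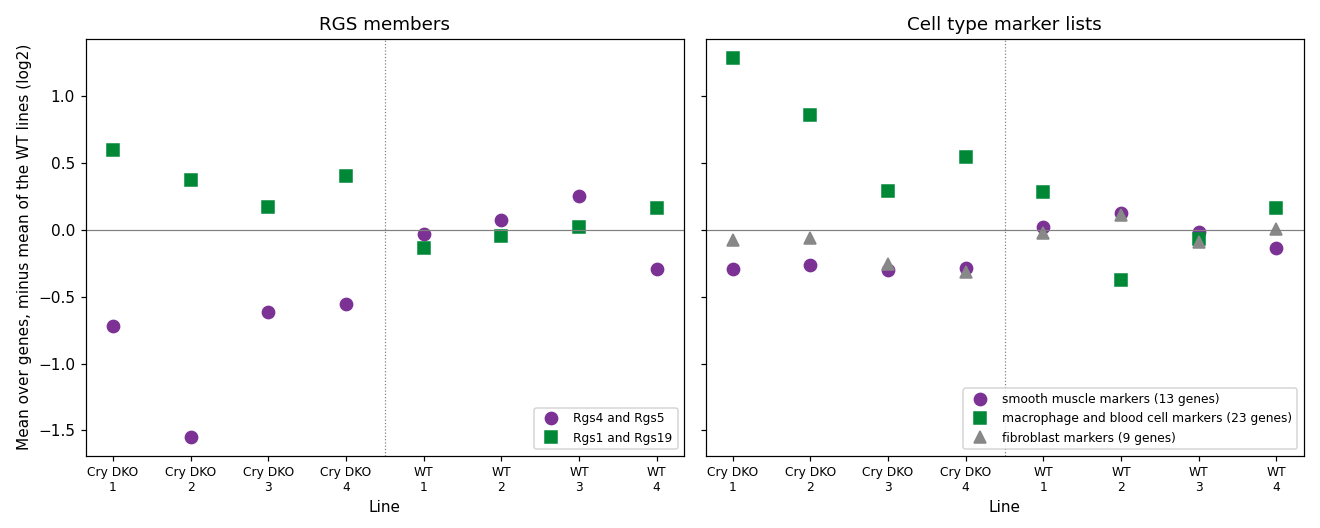
Mean log2 signal per line minus the WT mean, Cry DKO lines left and WT lines right, for Rgs4 and Rgs5 and for Rgs1 and Rgs19 (left panel) and for 3 lists of cell type markers (right panel). Rgs4 and Rgs5 lie between -1.55 and -0.56 in the Cry DKO lines, and macrophage markers lie highest in Cry DKO lines 1 and 2.

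Markers of other cell types moved with the genotype as well. Of 32 tested probe sets of 23 macrophage and blood cell marker genes, 16 were higher in Cry DKO lines (13 genes) and none lower, which is 50% against 6.81% of all tested, with a median difference of 0.78. Without an intensity trend in the fit, 5 of the 32 passed. Their mean per line ran from 8.65 to 9.64 in Cry DKO lines and from 7.99 to 8.64 in WT lines, so that the lowest Cry DKO line was level with the highest WT line. Cd14, a co-receptor for bacterial lipopolysaccharide, rose by 0.92 (limma adjusted p = 0.00411), Lyz2, the lysozyme of macrophages, by 0.83 (limma adjusted p = 0.00532) and Cd53, a tetraspanin of leukocytes, by 0.92 (limma adjusted p = 0.0143). All 23 genes were above the floor in some probe set, in cultures labelled as fibroblasts. Of 10 lymphocyte and mast cell markers only Gata2 had a probe set, at a lower mean in Cry DKO lines for both of its probe sets, and neither passed. The part of these cells in the differences of Rgs1, Rgs2 and Rgs19 was not tested. In bulk RNA, a change in the number of cells of a type and a change in RNA per cell cannot be told apart.

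Smooth muscle markers were lower in Cry DKO lines in 6 of 24 tested probe sets (25%, against 6.81% of all tested, and 4 without an intensity trend) and higher in none, in the genes Myh11, Myl9, Synpo2 and Cald1 of 13, with a median difference of -0.21. Myh11, the smooth muscle myosin heavy chain, fell by 0.85 (limma adjusted p = 0.00635), Synpo2, an actin-binding protein, fell by 0.72 (limma adjusted p = 0.00635) and Myl9, a myosin light chain, fell by 0.22 (limma adjusted p = 0.0118). The mean of the list ran from 11.11 to 11.15 in Cry DKO lines and from 11.28 to 11.54 in WT lines. All Cry DKO lines were thus nearly equal on this list, while the mean of Rgs4 and Rgs5 set Cry DKO line 2 apart from the others. 1 of 6 pericyte probe sets was lower (Mcam, -0.49, limma adjusted p = 0.0400), and the pericyte mean ran from 9.40 to 9.72 in Cry DKO lines and from 9.53 to 9.76 in WT lines. 1 of 17 fibroblast probe sets was lower (Fap, -0.69, limma adjusted p = 0.0297), with list means of 12.41 ± 0.13 in Cry DKO lines and 12.58 ± 0.08 in WT lines. No endothelial marker lay above the floor, and neither epithelial keratin tested passed, with Krt18 at -0.30 (limma adjusted p = 0.153) and Krt19 at 0.02. The part of smooth muscle or pericyte content in the differences of Rgs4 and Rgs5 was not tested.

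Beyond the 10 genes, the rest of the pathway was described from lists of related genes. 11 further RGS genes were listed, of which Rgs9, Rgs14 and Rgs18 had 5 probe sets, all under the floor. Of 97 tested probe sets of 48 genes in the pathway lists, 6 passed in limma's test (6.19%, against 6.81% of all tested), 5 as higher and 1 as lower. Unadjusted p-values under 0.05 were common over the whole table, so nothing is read from their counts in the lists below. For scale, the unadjusted limma p of 0.0280 of Rgs4 1448285_at stood only at place 2908 of the 16347 tested probe sets.

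None of 19 probe sets of 10 other genes with an RGS domain passed (limma, 2 at an unadjusted p under 0.05, and 0 in the fit without an intensity trend), with a median difference of -0.09. This list holds axins, receptor kinases and the exchange factors Arhgef12 (-0.23, limma adjusted p = 0.145) and Arhgef11 (-0.19, limma adjusted p = 0.178), which G12 and G13 activate. The alpha subunits that RGS proteins act on did not pass either. For Gi, Go and Gz, 0 of 6 probe sets passed (limma, 2 at an unadjusted p under 0.05, and 0 without an intensity trend), with Gnai1 at -0.28 (limma adjusted p = 0.155) and Gnai3 at 0.12 (limma adjusted p = 0.210). For Gq and G11, 0 of 8 passed (limma, 1 at an unadjusted p under 0.05, and 0 without an intensity trend), with Gna11 at -0.20 (limma adjusted p = 0.0982) and Gnaq at -0.23 (limma adjusted p = 0.297). For Gs, G12 and G13, 0 of 12 passed (limma, 1 at an unadjusted p under 0.05, and 0 without an intensity trend), with Gnas at -0.19 (limma adjusted p = 0.0668) and Gna13 at 0.09 (limma adjusted p = 0.461).

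Of 14 probe sets of G beta and gamma subunits, 1 passed, as lower in Cry DKO lines. By limma, 6 of the 14 had an unadjusted p under 0.05, and 1 passed without an intensity trend. The call in the main fit was Gng8, a gamma subunit. It read 5.11, 5.86, 5.97 and 5.71 in Cry DKO lines and 6.61, 6.70, 6.72 and 6.17 in WT lines. The genotypes did not overlap, and the Cry DKO mean was under the floor (difference -0.89, SE 0.20, limma adjusted p = 0.0277). It passed in all 5 fits without a line in which it stayed above the floor. None of 8 probe sets of other regulators of G alpha passed (limma, 3 at an unadjusted p under 0.05, and 0 without an intensity trend). Of these, Ric8b, a chaperone and exchange factor, differed by -0.36 (limma adjusted p = 0.0863) and Gpsm1, which binds the GDP form of Gi alpha, by -0.38 (limma adjusted p = 0.130). None of 6 probe sets of phospholipase C beta, the effector of Gq, passed (limma, 1 at an unadjusted p under 0.05, and 0 without an intensity trend), with Plcb3 at -0.21 (limma adjusted p = 0.207) and Plcb4 at 0.08 (limma adjusted p = 0.726).

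Receptors of contractile and growth signals gave no call in 16 probe sets of 9 genes (limma, 3 at an unadjusted p under 0.05, and 0 without an intensity trend), with a median difference of -0.11. The thromboxane receptor Tbxa2r differed by -0.46 (limma adjusted p = 0.124) and the UDP receptor P2ry6 by 0.48 (limma adjusted p = 0.131). Leukocyte receptors were higher in 5 of 8 probe sets of 4 genes (62.5%, against 6.81% of all tested), with a median difference of 0.89, and in 3 of the 8 without an intensity trend. The list had 21 probe sets of 14 genes, most of them under the floor and not tested, and the 5 calls came from 3 genes. The other tested gene, Cx3cr1, differed by 0.23 and 0.30 in its probe sets (limma adjusted p = 0.552 and 0.516). The complement receptor C5ar1 read 8.02, 7.52, 7.14 and 7.19 in Cry DKO lines and 6.92, 5.97, 5.86 and 6.31 in WT lines. All Cry DKO lines were above all WT lines (difference 1.20, SE 0.25, limma adjusted p = 0.0174), and its second probe set was higher by 1.17 (limma adjusted p = 0.0218), though its WT mean lay under the floor, which it reached through the Cry DKO lines. The chemokine receptor Ccr1 was higher by 0.93 (SE 0.21, limma adjusted p = 0.0264), and the complement receptor C3ar1 by 0.86 and 0.99 in the 2 of its 3 probe sets that passed (limma adjusted p = 0.0328 and 0.0460). All 5 calls were lost without WT line 2 and all 5 without WT line 3, and some also without Cry DKO line 1, 2 or 3 or WT line 1 or 4. With a line left out, the difference ran from 1.02 to 1.42 for C5ar1 1422190_at, from 0.92 to 1.32 for its second probe set, from 0.74 to 1.09 for Ccr1, and from 0.64 to 0.98 and 0.74 to 1.15 for C3ar1. These receptors were higher in the same lines as the macrophage markers above, and the part of those cells was not tested.

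**Figure D4:**
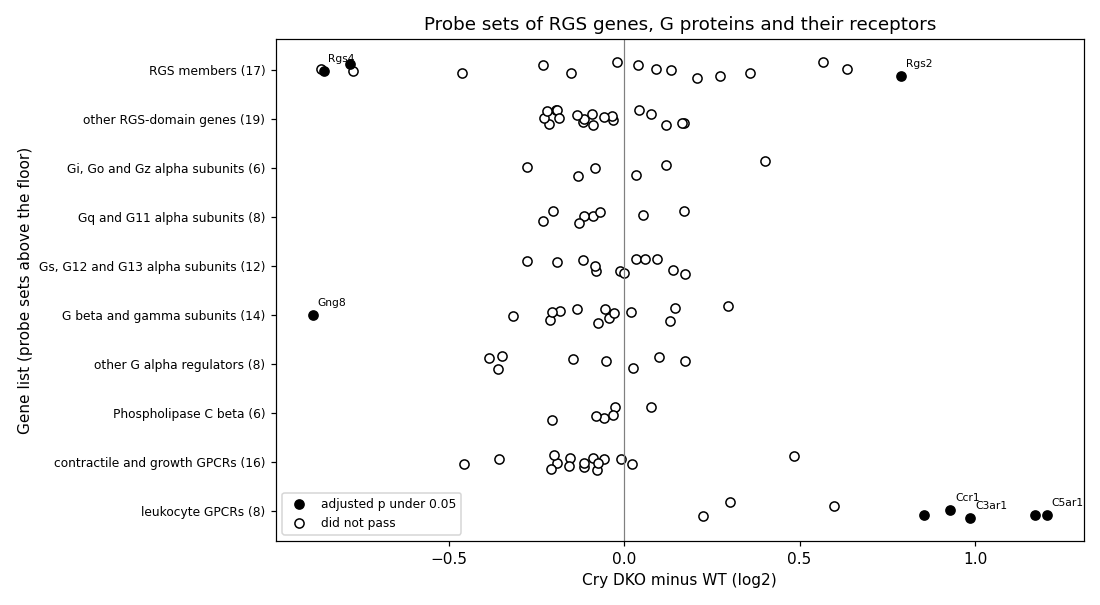
Difference in log2 signal, Cry DKO minus WT, of every tested probe set of the RGS members and of 9 lists of related genes, with the number of probe sets in brackets. Filled points passed at an adjusted p under 0.05: in the G protein lists this holds for Gng8 alone, at -0.89, and among leukocyte receptors for 5 of 8 probe sets, at 0.86 to 1.20.

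The genes most like a member over the 8 lines were found as the smallest root mean square difference between centred profiles, among the probe sets of highest mean of 9514 other genes. For Rgs4 these were Edn1 (0.155), Plekhg1 (0.173) and Pou6f1 (0.195), where the median gene differed by 0.517. Edn1, which encodes the contractile peptide endothelin 1, read 7.24, 6.89, 7.43 and 6.96 in Cry DKO lines and 7.92, 7.54, 7.98 and 7.80 in WT lines. As for Rgs4, Cry DKO line 2 was the lowest and line 3 the highest of the Cry DKO lines. The same held for WT lines 2 and 3. Edn1 was picked for its likeness over these same lines, so the shared order is no further evidence of likeness. For Rgs5 they were Ablim1 (0.310), Klhl30 (0.349) and Piezo2 (0.367), against a median of 0.677. Rgs5 thus had no gene as near to it as Edn1 was to Rgs4. For Rgs1 they were H2-M3 (0.137), P2ry6 (0.151) and Mis18a (0.161), against a median of 0.428, and P2ry6 is the UDP receptor named above. For Rgs19, whose values hardly varied, they were Farsb (0.0329), Mbd2 (0.0338) and Otud6b (0.0351), against a median of 0.170.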

How the data were processed

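Total RNA of 8 primary MEF lines, 5 ug each per the labels' protocols, was measured on 1 Affymetrix array per line. The submitters' processing notes name GCOS, with no version or role. The deposited values were read as log2 signals from their range of 0.0675 to 14.3. Log base, summarisation and normalisation were not given in the sources used here. Fold changes assume base 2. Genes were named from GEO's platform annotation, and 24838 probe sets had 1 gene, 658 several and 4949 none, beside 61 controls. Of the 24838, 24757 had a gene ID found in the RefSeq table (GRCm38.p6).

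The values were used as deposited. Probe sets of 1 gene at or above the floor were tested with limma 3.58.1 in R 4.3.3 (lmFit, eBayes with an intensity trend, two-sided), all 8 arrays and no covariate, with Benjamini-Hochberg adjustment over all 16347 and a threshold of 0.05. The fit was tested on simulated data. Named were all 10 members, Cry1 and Cry2, every gene called in a pathway list or otherwise up to 2 of smallest p, up to 3 of each marker list, and the 3 nearest profiles of Rgs1, Rgs4, Rgs5 and Rgs19. The members and the lists were chosen with earlier results of these data known, so none is independent evidence. No pair of arrays held identical values. The labels call the lines independent but number them without saying that a number is shared between genotypes. Alternatives changed the floor, the normalisation, the variance model, the probe sets per gene, a replicate block and the lines included.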

Additional observations from a re-analysis of the deposited data

Results flagged for a closer look

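Among 70 groups of 4 lines examined for a line far from its others, 3 were found, where chance alone marks about 1 in 20. In Rgs3 1425701_a_at, Cry DKO line 1 read 6.9973 and the other Cry DKO lines 7.18 to 7.20, a gap that is large only against their very narrow range. In Rgs5 1420940_x_at, a probe set under the floor, WT line 4 read 4.2445 and the other WT lines 5.78 to 5.89. In the mean of Rgs4 and Rgs5, Cry DKO line 2 stood at -1.55 relative to the WT mean and the other Cry DKO lines at -0.72 to -0.56.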

How the results depend on the processing

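Of 288 comparisons of a member probe set with an alternative, 270 kept direction and side of the threshold, 5 lost a call, 5 gained one and 8 changed sign. The 3 member calls became 1 with a floor at the 60th percentile and 1 with 1 probe set per gene (Rgs4 1416286_at both times, since the other called probe sets were not among those tested), 4 with a floor at the 20th percentile (Rgs5 1420941_at added, adjusted p = 0.0498), 5 with a replicate block, and 1 to 5 when a line was left out. The block added Rgs2 1419248_at and Rgs4 1448285_at (limma adjusted p = 0.0470 for each). The labels tie lines by number alone. With each tested probe set first centred on its genotype mean, same-numbered lines correlated at 0.285, 0.11, 0.202 and 0.0225. On these centred values, Cry DKO lines 1, 2 and 3 correlated best with the WT line of their own number. Cry DKO line 4 correlated best with WT line 3, so the numbers were not taken as pairs. Pathway calls (6) became 0 with the floor at the 60th percentile and 0 to 7 without a line. Marker calls (24) became 10 without an intensity trend, 37 with the replicate block and 9 to 29 without a line. All calls (1113) became 482 to 860 without a line, the fewest without WT line 3 (482), WT line 1 (586) and WT line 2 (601), and 825 to 1422 otherwise. Without a line, Cry1 differed by -0.62 to -0.34, Cry2 by -0.42 to -0.26 and the Rgs4 and Rgs5 score against Rgs1 and Rgs19 by -1.40 to -1.02. The sign of 3 probe sets with differences near 0 depended on the lines: over the fits without a line, Rgs3 1425296_a_at ran from -0.061 to 0.013, Rgs16 1426037_a_at from -0.068 to 0.41 and Rgs16 1451452_a_at from -0.10 to 0.31, the top of both Rgs16 ranges being without Cry DKO line 4. The cause was not tested, beyond the fewer lines or probe sets that some alternatives have by construction. Signals under the floor vary more, with a median SD of 0.421 within a genotype, and limit what Rgs5 and Rgs12 can show.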

Other observations

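Rgs18, an RGS gene of platelets and other blood cells, lay under the floor and was not tested. Its probe set 1420398_at read 3.85, 4.18, 3.55 and 5.21 in Cry DKO lines and 2.28, 2.70, 0.83 and 3.29 in WT lines. The genotypes did not overlap and the means differed by 1.92, at signals where replicates scatter widely. Its other probe set, 1449856_at, overlapped between genotypes, with WT line 1 at 3.73 above Cry DKO lines 1 and 3 at 3.46 and 3.31. There the means differed by 1.19. Rgs14, a scaffold known from brain, read 6.56, 6.32, 5.48 and 6.03 in Cry DKO lines and 6.31, 5.98, 5.87 and 5.74 in WT lines, with full overlap.

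In the annotation order of mouse chromosome 1, Rgs5 and Rgs4 are neighbours, and Rgs2, Rgs13, Rgs1, Rgs21 and Rgs18 follow each other. Rgs13 and Rgs21 have no named probe set here. Beside the Rgs5 and Rgs4 pair, Nuf2, a kinetochore gene, differed by 0.13 (limma adjusted p = 0.577), and Ddr2, a collagen receptor 3 genes from Rgs4, by -0.47 (limma adjusted p = 0.0448) and -0.20 in its 2 probe sets. Hsd17b7, a sterol synthesis gene between Rgs4 and Ddr2, differed by -0.09, 0.17 and -0.04 in its tested probe sets, none of which passed. Beside Rgs2, Uchl5, a proteasome-linked deubiquitinase, was higher by 0.31 (limma adjusted p = 0.0363).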
